A study of Mus musculus with 10 samples.

Results

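Myb lies on mouse chromosome 10 (mm10), and the stretch from 21050000 to 21400000 holds the gene, the enhancers upstream of it and its neighbours. All regions that overlapped this stretch were taken, by position and not by signal, which gave 29 of the 151133 regions whose reads had been counted. The protein profiled was IKZF2, also called Helios, an Ikaros family DNA-binding protein, and the assay was CUT&RUN, in which an antibody guides a nuclease to its target so that the DNA around it is cut free and sequenced. The cells were RN2 cells of C57BL/6 background, a mouse leukaemia line carrying MLL-AF9 and NRASG12D, and all samples came from cells transduced with a retrovirus for murine IKZF2 and RFP, sorted and cultured for 2 weeks. The anti-IKZF2 antibody was used in 3 libraries with 2 technical replicates each, and a control rabbit antibody in 4 further samples that were not analysed here, so no value below is set against a control antibody. IKZF2 was overexpressed in every sample, so the values describe cells with added IKZF2.

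Myb encodes a DNA-binding transcription factor of blood stem and progenitor cells. It keeps progenitors dividing, its level falls as myeloid and erythroid cells mature, and leukaemias driven by MLL fusions depend on it. Its transcription is controlled by enhancers spread over the gap between Myb and Hbs1l, which encodes a translation factor that rescues stalled ribosomes. On the other side lies Ahi1, which encodes a protein of the primary cilium.

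The deposited regions did not cover the Myb promoter but did cover that of Hbs1l. Myb runs on the minus strand from its start at 21160984 to 21124930, a span of 36.1 kb, so positions with higher coordinates lie upstream of it. No region lay within 2 kb of its start: the nearest was 2689 bp inside the gene and the next 8030 bp upstream, and the stretch between them without a region was 10.7 kb long. Of the 17492 protein-coding genes with a start in the promoter table, 46.0% had a region within 2 kb of a start. Hbs1l begins at 21295979, 135.0 kb upstream of Myb, and the region chr10:21295832-21296039 lay over that start. These are the 250 bases before each start (RefSeq, GRCm38.p6, with the same coordinates as mm10), shown because one promoter carried a region and the other none. Capitals mark GGGAA on either strand (TTCCC on the strand shown), the core bound by Ikaros family zinc fingers.
Hbs1l, chr10:21295729-21295978, plus strand: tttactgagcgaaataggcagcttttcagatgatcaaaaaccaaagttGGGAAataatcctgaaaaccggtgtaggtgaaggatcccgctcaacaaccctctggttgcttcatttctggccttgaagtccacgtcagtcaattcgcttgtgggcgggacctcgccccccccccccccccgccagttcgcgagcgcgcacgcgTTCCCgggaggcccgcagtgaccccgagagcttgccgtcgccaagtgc
Myb, chr10:21160985-21161234, minus strand: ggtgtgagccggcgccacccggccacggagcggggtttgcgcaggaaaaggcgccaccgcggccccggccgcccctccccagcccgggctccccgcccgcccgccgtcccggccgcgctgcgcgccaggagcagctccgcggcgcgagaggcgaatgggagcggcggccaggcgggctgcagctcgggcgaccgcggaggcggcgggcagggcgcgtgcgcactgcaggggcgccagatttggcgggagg

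The Hbs1l stretch held 2 GGGAA matches, which begin at bases 49 and 203 of the printed sequence. The region covers the sequence from base 104 onward, so the second match lay inside it and the first outside. The Myb stretch held 0 matches. Of 32851 promoters in the table, 56.2% had at least 1 match in the same 250 bases. The core bound by MYB itself, AACNG on either strand, was found at bases 65 and 182 of the Hbs1l stretch and nowhere in the Myb stretch, against 74.2% of promoters with at least 1 match. G and C made up 81.2% of the Myb stretch and 58.4% of the Hbs1l stretch, with a median of 52.4% over the table. A match is a description of the letters only.

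Depth limited every value. Technical replicate 1 held 273896 to 326440 reads in regions per sample and technical replicate 2 held 1296355 to 1755015. Over the 29 regions that left 56, 45 and 64 reads in technical replicate 1 of libraries 1, 2 and 3, and 287, 240 and 315 in technical replicate 2. Of the 87 values of technical replicate 1 (29 regions in 3 samples), 32 were 0 (36.8%, against 37.8% over all regions). If reads are independent, a count of 0 there allows up to 3 reads, or 9.19 to 11.0 CPM (counts normalised to the sum over all regions of the same sample). That limit is not divided by region width, unlike the signal below. It is too low where both mates of a pair were counted. Over all regions, 85.8% of counts of 10 or more were even in technical replicate 1, and 59.3% in technical replicate 2. In technical replicate 2, 2 of 87 values were 0. Technical replicates were therefore summed, and a region's signal is its CPM per kb of region, with the mean and SD over 3 libraries. The labels do not say whether separate cultures were used for the libraries, so this SD may be technical.

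As a whole the locus had more regions than the median stretch of its length. By the mean of 3 libraries its median signal per region was close to that of the genome, though library 1 stood higher. Library 1 had 343 of its 1675237 reads there, library 2 had 285 of 1570251 and library 3 had 379 of 2081455. These are 0.0205%, 0.0182% and 0.0182% of the library (mean 0.0189% ± 0.0013, SD, n = 3), and the regions made up 0.0191% of all bases covered by regions. The share in technical replicate 2 was above that in technical replicate 1 in 2 of 3 libraries, and the difference did not pass (two-sided exact permutation p = 0.50, where 3 pairs allow no p below 0.25). Cut into windows of 350 kb, chromosomes 1 to 19 and X gave 7129 windows with a region, with a median of 20 regions, and 28.8% of them had 29 or more. The median region signal of the locus was 49.4, against 49.5 over all regions, and 14 of 29 regions lay above that median. In libraries 1, 2 and 3 the locus median was 63.1, 49.0 and 46.6, against 48.8, 47.4 and 49.5 over all regions. The locus regions had a median width of 108 bp (90 to 229), against 109 bp for all regions, and held 21 to 74 reads each (median 30, against 31).

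Of the 29 regions, 4 (13.8%) were in the top 10% of all regions by mean signal, which begins at 64.0 CPM per kb. The share over all regions is 10.0% by construction, so the locus was near the background. The count was 1 without library 1, 3 without library 2, 2 without library 3 and 1 in technical replicate 1 alone. Ranked within single libraries, 3, 1 and 1 regions reached the top 10% of libraries 1, 2 and 3. These were 5 different regions, or 17.2% of the locus, against 27.2% of all regions that did so in at least 1 library. None did so in 2 or more libraries, against 2.28% of all regions, and none in all 3, against 0.645%.

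**Figure D1:**
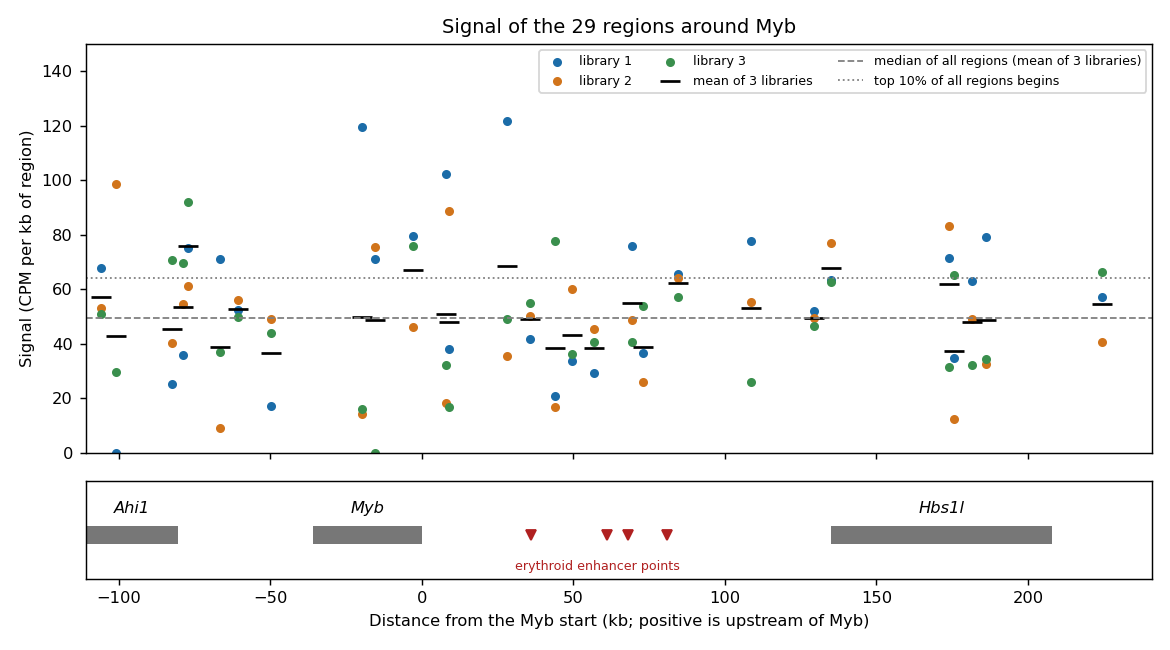
Signal in CPM per kb of region (y axis) of the 29 regions against the distance of their centre from the Myb start in kb (x axis), with a point for each library, a bar for the mean, and the gene spans below. The means sit between 36.7 and 76.0 around the genome median of 49.5, and the points of single libraries spread from 0 to 122.

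Within the Myb gene span there were 3 regions, with 52, 26 and 29 reads in libraries 1, 2 and 3. The region nearest to the start, chr10:21158130-21158295, lay in the gene 2.8 kb from the start, measured to its centre. It held 4 and 18 reads in technical replicates 1 and 2 of library 1, 0 and 12 in library 2 and 4 and 22 in library 3. Libraries 1 and 3 stood close together and library 2 was the lowest. The signal was 79.6, 46.3 and 75.7 CPM per kb (mean 67.2 ± 18.2, SD, n = 3), which put it in the top 10% of all regions by its mean but in that of no single library.

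The other regions inside Myb were carried by 1 or 2 libraries. The region 19.8 kb into the gene, chr10:21141137-21141227, held 18, 2 and 3 reads, which gave 119, 14.2 and 16.01 CPM per kb. Library 1 supplied 79.8% of its summed signal. The region 15.5 kb into the gene, chr10:21145440-21145541, held 12, 12 and 0 reads, or 70.9, 75.7 and 0 CPM per kb. Here library 3 stood apart, and its count of 0 has an upper 95% Poisson limit of 17.5 CPM per kb. Technical replicate 1 held 1 read in each of these regions over all 3 libraries.

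Between Myb and Hbs1l lay 12 of the 29 regions, and 5 of these overlapped the span of a non-coding gene: Gm33671 with 1, Gm33728 with 3 and the pseudogene Gm2467 with 1. The strongest was chr10:21189138-21189246, 28.2 kb upstream of the Myb start and 2194 bp from the start of the non-coding gene Gm33619. Its reads were 22, 6 and 11 for libraries 1, 2 and 3, or 122, 35.4 and 48.9 CPM per kb (mean 68.6 ± 46.4, SD, n = 3). Library 1 stood above the other libraries, and without it the region was at 42.2. The widest region of the locus, chr10:21204762-21204991 (229 bp), lay 43.9 kb upstream. Its reads were 8, 6 and 37, and 35 of the 37 came from technical replicate 2 of library 3, so 1 sample supplied most of its 51 reads. Its mean was 38.4 ± 34.0 CPM per kb.

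Reads in the regions closest to the Myb start on the upstream side were also uneven between libraries. In the edgeR fit without a filter on low counts, neither had an unadjusted p under 0.05 between libraries. In both, however, the 95% Poisson intervals of the highest and the lowest library did not overlap, as in 28.1% of all regions. They were 60.6 to 162 and 3.75 to 53.2 CPM per kb at 8.1 kb (libraries 1 and 2). At 9.0 kb they were 56.9 to 132 and 6.15 to 36.5 (libraries 2 and 3). At 8.1 kb, chr10:21169014-21169119 held 18, 3 and 7 reads, none of them in technical replicate 1. It was the only region of the locus with no read there, as were 5.17% of all regions. At 9.0 kb, chr10:21169933-21170105 held 11, 24 and 6 reads. So library 1 was highest at the first and library 2 at the second, although their centres lie under 1 kb apart.

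Erythroid enhancers of mouse Myb have been described at about 36, 61, 68 and 81 kb upstream of its start. These points come from general knowledge and not from these data, and the list may not be complete. A region lay within 2 kb of the points at 36 and 68 kb, of only the 36 kb point within 1 kb, and of all 4 within 5 kb. Neighbouring regions of the locus lay a median of 7.7 kb apart. How many other points of the locus have a region as near was not counted, so these counts do not set the enhancers apart. The region chr10:21196598-21196712, 272 bp from the 36 kb point, held 8, 9 and 13 reads in libraries 1, 2 and 3. The libraries stood close together, at 41.9, 50.3 and 54.8 CPM per kb (mean 49.0 ± 6.5, SD, n = 3), close to the median of all regions. Their 95% Poisson intervals were wide, at 18.1 to 82.5, 23.0 to 95.4 and 29.2 to 93.7. The region chr10:21230176-21230294, 1192 bp from the 68 kb point and inside the Gm33728 span, held 15, 9 and 10 reads, or 55.1 ± 18.5 CPM per kb.

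The nearest regions to the other points lay further off. The region chr10:21245491-21245600, 3507 bp from the 81 kb point, held 12, 11 and 13 reads. It gave 65.7, 64.3 and 57.3 CPM per kb (mean 62.4 ± 4.5), so all 3 libraries stood together, and its mean lay just under the top 10%. Technical replicate 1 gave 98.7 and technical replicate 2 gave 55.0. The region chr10:21217635-21217860, 4124 bp from the 61 kb point and 1139 bp from the start of Gm33671, held 11, 16 and 19 reads, or 38.3 ± 8.3 CPM per kb. It was 225 bp wide and lay under the median of all regions. Further upstream, chr10:21269478-21269570 at 108.5 kb held 12, 8 and 5 reads (53.1 ± 25.9 CPM per kb) and chr10:21290297-21290400 at 129.4 kb held 9, 8 and 10 (49.4 ± 2.8).

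In steps of 20 kb from the Myb start to just past the Hbs1l start, signal over covered bases went up and down with distance. A trend was not tested. It was 49.0, 58.5, 39.3, 47.7, 62.4, 53.1 and 61.6 CPM per kb of covered bases, from 1 to 3 regions a step. The lowest step, 40 to 60 kb, had the most covered bases (560 bp) and held the 2 widest regions of the locus. The steps at 80 to 100 and 100 to 120 kb rested on 1 region each.

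The Hbs1l start region held the most reads of the locus. There were 8 and 14 reads in technical replicates 1 and 2 of library 1, 2 and 23 in library 2 and 6 and 21 in library 3, 74 in all. Summed, the libraries held 22, 25 and 27 reads and gave 63.4, 76.9 and 62.7 CPM per kb (mean 67.7 ± 8.0, SD, n = 3). The 95% Poisson intervals, 39.8 to 96.1, 49.8 to 114 and 41.3 to 91.2, overlap widely. Such intervals cover counting error alone, and they understate it where both mates of a pair were counted. Among all 2822 regions over a protein-coding start the median was 72.4 CPM per kb, 63.4% were in the top 10% of all regions, and 42.6% lay below the Hbs1l start region. It was thus a common level for a region over a gene start, and the only region of the locus in such a place.

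Inside Hbs1l the other 4 regions began 38.8 kb after the one at its start, the longest gap between neighbouring regions of the locus. The highest, chr10:21334862-21334954, overlaps the non-coding gene 4930455C13Rik as well and held 11, 12 and 6 reads (61.9 ± 27.1 CPM per kb). The lowest, chr10:21336576-21336679, held 6, 2 and 14 (37.5 ± 26.6). The remaining 2 stood at 48.2 and 48.7. Beyond Hbs1l, 1 region inside Aldh8a1, which encodes an aldehyde dehydrogenase, held 9, 6 and 13 reads (54.7 ± 13.1).

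By the mean of all 3 libraries, the highest signal of the locus lay on the other side of Myb, in the gap towards Ahi1. The region chr10:21083727-21083894, 77.2 kb downstream of the Myb start and 3298 bp past the end of the Ahi1 span, held 5 and 16 reads in technical replicates 1 and 2 of library 1, 0 and 16 in library 2 and 4 and 28 in library 3. It gave 75.1, 61.01 and 92.1 CPM per kb (mean 76.0 ± 15.5, SD, n = 3). All 3 libraries stood above their own median region there, at percentile 96.3 of all regions by the mean. Its first place in the locus did not hold in every setting. Without library 2 it stood at 83.6 and the region 28.2 kb upstream at 85.3, and without library 3 it stood at 68.04, against 78.5 there and 70.2 at the Hbs1l start. In technical replicate 1 alone it stood at 57.8, against 84.3 at the Hbs1l start and 98.7 at the region nearest to the 81 kb point. Its neighbour chr10:21082201-21082318 held 7, 10 and 17 reads (53.3 ± 17.1).

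The other 3 regions of this gap were lower. They stood at 52.8 ± 3.1 (60.6 kb from the Myb start; 11, 11 and 13 reads), 38.9 ± 31.1 (66.7 kb; 17, 2 and 11 reads) and 36.7 ± 17.1 (49.7 kb; 6, 16 and 19 reads). The last had the lowest mean of the locus. Within the Ahi1 span, chr10:21054878-21055010 held 15, 11 and 14 reads (57.3 ± 9.2), and chr10:21060033-21060130 held 0, 15 and 6 (42.7 ± 50.5).

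**Figure D2:**
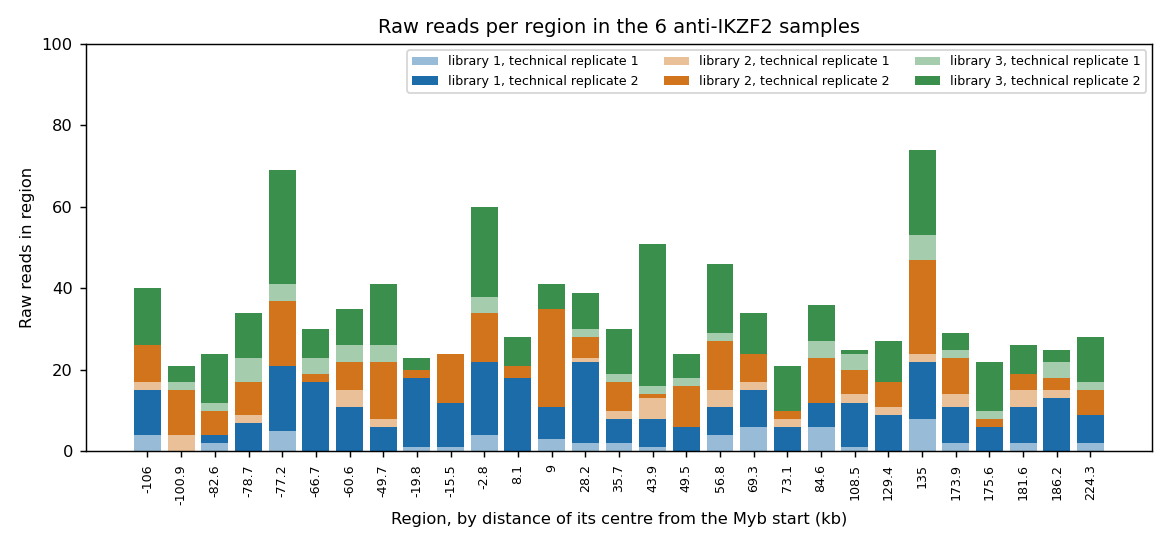
Raw reads (y axis) in each of the 29 regions, ordered by distance from the Myb start in kb (x axis), stacked by library and technical replicate. The Hbs1l start region at 135.0 kb is tallest with 74 reads and draws 22, 25 and 27 from the libraries, while the 51 reads at 43.9 kb come mostly from library 3.

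Regions of the locus could be divided by how evenly the libraries supplied them. In 5 of 29 (17.2%) every library stood above its own median over all regions, against 6.74% of all regions, a difference that was not tested. These were the Hbs1l start region, the strongest region by Ahi1, and those at 84.6 kb upstream and at 60.6 and 106.0 kb downstream of the Myb start. None of the 5 lay in the Myb span. In 7 of 29 (24.1%) the 95% Poisson intervals of the highest and the lowest library did not overlap, against 28.1% of all regions, which is near the background. Of these 7, 2 lay in the Myb span and 3 between Myb and Hbs1l.

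The median coefficient of variation over the 3 libraries was 0.36 in the locus and 0.50 over all regions. It ran from 0.056 at 129.4 kb upstream to 1.21 at 19.8 kb inside Myb. In 11 of 29 regions (37.9%) 1 library gave over 50% of the summed signal, against 46.1% of all regions. Library 1 was the highest in 12 regions, library 2 in 9 and library 3 in 8. As a description over 29 regions of the same libraries, log2 CPM correlated between libraries with Pearson's r of -0.08 (1 and 2), 0.09 (1 and 3) and 0.16 (2 and 3), and Spearman's rho of 0.05, -0.02 and 0.22. Over all regions r was 0.00, -0.02 and -0.01.

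Signal over the upstream gap did not differ from that over Myb beyond the spread between libraries. Reads were summed over all regions of a stretch and divided by the bases they cover. The gap from Myb to Hbs1l stood at 52.2, 46.0 and 45.6 CPM per kb in libraries 1, 2 and 3 (mean 47.9 ± 3.7, SD, n = 3). The Myb span stood at 87.2, 46.5 and 39.1 (57.6 ± 25.9), so library 1 was apart there and the groups overlap. The difference, gap minus span, was -35.0, -0.53 and 6.5 (mean -9.7 ± 22.2), with a two-sided exact permutation p of 0.75, where 3 libraries allow no p below 0.25. Without library 1 the mean difference was 2.99, the other direction.

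The other stretches lay near the same level. The Hbs1l span stood at 55.2 ± 6.9 CPM per kb of covered bases, the gap from Ahi1 to Myb at 51.0 ± 6.4 and the Ahi1 part of the locus at 49.4 ± 14.0, against 51.5 for all regions of the genome. Regions were spaced at 11.2 per 100 kb between Ahi1 and Myb, 8.3 in the Myb span, 8.9 between Myb and Hbs1l and 6.9 in Hbs1l.

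**Figure D3:**
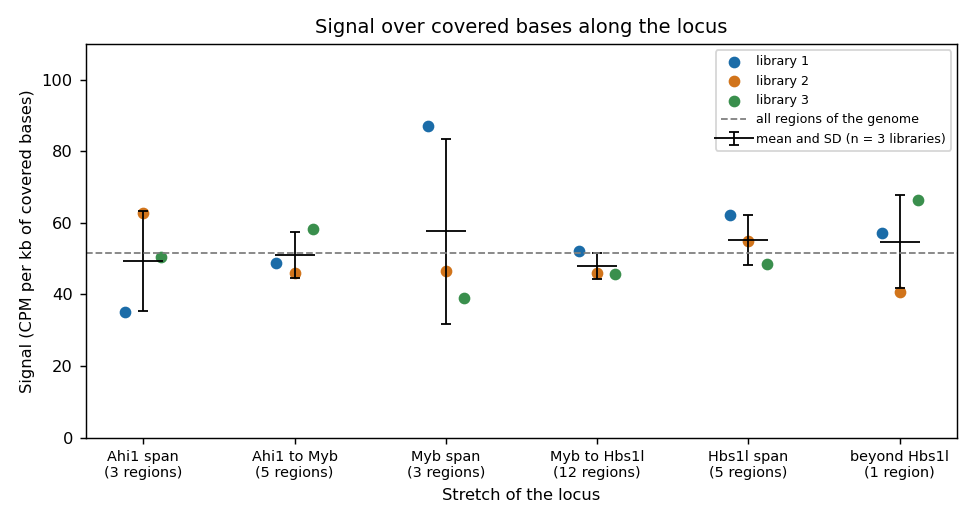
Signal in CPM per kb of covered bases (y axis) for 6 stretches of the locus (x axis), with a point for each library and the mean with its SD (n = 3 libraries). The Myb span holds the widest spread, 39.1 to 87.2, and the 12 regions between Myb and Hbs1l the narrowest, 45.6 to 52.2.

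Tests across the genome made no call in the locus. Counts were tested with edgeR's quasi-likelihood test on the 27452 regions that passed a filter on low counts, which 5 of the 29 locus regions passed. Those 5 were the Hbs1l start region, the region nearest to the Myb start, the strongest region by Ahi1 and those at 43.9 and 56.8 kb upstream. Between technical replicates, 71 regions of the genome (0.259%) passed at an adjusted p under 0.05 and 0 of the 5 did, with 0 at an unadjusted edgeR p under 0.05. The median log2 difference, technical replicate 2 over 1, was 0.24 in the 5 and 0.41 over all tested regions. Both medians depended on the scaling. They were -0.13 and 0.05 with total reads in regions as library size, and 0.11 and 0.29 with DESeq2. The lowest edgeR adjusted p of the 5 was 0.957, for the region by Ahi1 (log2 difference 1.18 ± 0.86, SE). Between libraries, edgeR called 4 regions (0.0146%) and 0 of the 5, again with 0 at an unadjusted p under 0.05, and DESeq2 called 0 of them in either comparison. The DESeq2 adjusted p was not given for any of the 5 between technical replicates. The test between libraries sets them against the spread of their technical replicates, so its p does not measure spread between separate cultures. Without the filter all 29 were tested and 0 called, with 1 at an unadjusted edgeR p under 0.05 between technical replicates and 0 between libraries.

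Beside the locus, 24 genes of the Myb family and of MYB's known partners and targets were valued by the highest region within 5 kb of either gene end. A region was found for 23 (95.8%), against 73.7% of 21887 protein-coding genes, and their median was 61.5 CPM per kb, against 58.8. In the top 10% of genes, at 102 or above, was 1 of 24 (4.17%), against 7.37% of all genes. Myb stood at percentile 65.8 of genes with a region. Its relatives, the germ cell factor gene Mybl1 and the cell cycle factor gene Mybl2, stood at 60.6 ± 21.3 and 66.8 ± 51.6. In Mybl2 the libraries gave 31.1, 126 and 43.4 CPM per kb, so its mean rested on library 2.

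The member in the top 10% was Taf12, which encodes a TFIID subunit through which MYB acts in leukaemia. It stood at 142, 66.7 and 146 CPM per kb (mean 118 ± 44.8, SD, n = 3), from 68 reads in chr4:132274288-132274393 over a gene end. Library 2 was the lowest and below the limit of the top 10%, and without library 1 or library 3 no member was in the top 10%. Taf12 then stood at 106.6, under a limit of 107.6, and at 104.4, under a limit of 108.9. The neutrophil elastase gene Elane and the proteinase gene Prtn3 lie side by side and drew 83.0 ± 33.5 from the same region. Mpo, which encodes myeloperoxidase, stood at 73.3 ± 45.7 and Ets2, an ETS factor gene, at 73.2 ± 45.7. Sox4 was the lowest with a region, at 44.1 ± 18.3, and Ccne1 had no region. The coactivator genes Crebbp and Ep300, whose products bind MYB, stood at 63.8 ± 28.0 and 59.2 ± 16.7.

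Of the neighbours, Ahi1 stood at 76.0, Hbs1l at 67.7 and Sgk1, a kinase gene further along the chromosome, at 56.1 ± 44.3, while Aldh8a1 had no region within 5 kb of an end. Measured from annotated starts, Sgk1 stood at 120, Hbs1l at 67.7 and Ahi1 at 65.8. Myb stood at 67.2 by either measure. It lay between the neighbours Hbs1l and Sgk1 by gene ends, and between Hbs1l and Ahi1 by starts.

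**Figure D4:**
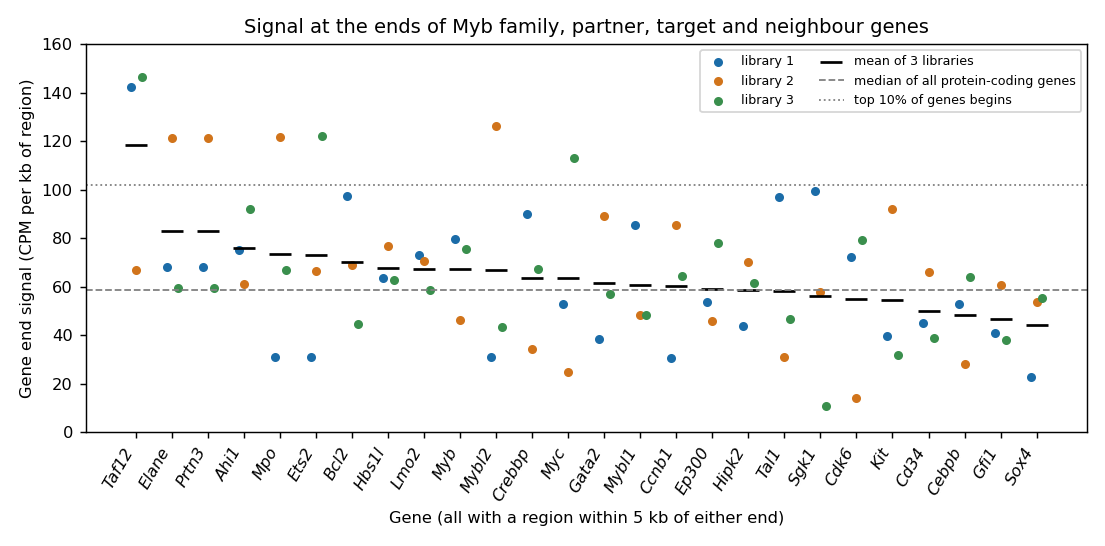
Gene end signal in CPM per kb of region (y axis) for the 26 list and neighbour genes with a region (x axis), with a point for each library and a bar for the mean. Taf12 alone has its mean above the limit of the top 10% at 102, and Myb at 67.2 lies between Lmo2 and Mybl2.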

How the data were processed

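The authors deposited, for each of the 6 anti-IKZF2 samples, raw read counts over 1 set of regions common to all samples, with no normalization, per the file headers and values. The build mm10 and the tools Bowtie2 2.3.3.1 and MACS2 are named in the submitters' processing notes; what each tool did, and how the regions were called and on which samples, is not given in the sources used here. Region starts are printed as deposited, and whether they count from 0 or from 1 is not stated.

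Samples were grouped by title. Technical replicates were summed per library, divided by the library's total in regions (CPM) and by region width. Regions were placed by overlap with RefSeq gene spans of GRCm38.p6, and otherwise by their centre; exons were not used here. Tests used edgeR 4.0.16 in R 4.3.3 (filterByExpr, TMM, glmQLFit, glmQLFTest, Benjamini-Hochberg over all tested regions) for technical replicate 2 against 1, blocked by library, and for any difference among libraries, adjusted for technical replicate. DESeq2 1.42.0 was run as an alternative. The pairing comes from the labels, which give both technical replicates to the same CUT&RUN: deviations of same-library samples correlated at 0.23, 0.25 and 0.23, and those of different libraries at -0.14 to -0.09. Deviations were taken from the mean over libraries within each technical replicate. Positive values within libraries therefore force negative ones between them, and the negative values are no separate evidence. The edgeR step was also run on simulated data, with large changes only, so its power for smaller changes at these counts is not known. Poisson intervals are exact at 95%. Other steps used Python 3.11.15. The locus, gene lists and tests were chosen with earlier results of these data known. Regions and genes were named by a rule: those nearest the Myb start and the enhancer points, the highest of each stretch and of the locus, the widest and the most read, any called, the Myb family, the neighbours, and the 5 highest and the lowest of the list. Regions that were named for their libraries alone were chosen after their values were seen.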

Additional observations from a re-analysis of the deposited data

How the results depend on the processing

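Over the alternatives run, the median signal of the locus was 0.881 to 1.12 times that of all regions. It was 48.1 to 55.8 with a library left out, and 38.4 on its 4 regions of 200 bp or wider, of which 0 were in the top 10% of regions of that width. The count in the top 10% was 1 to 3 with a library left out and 1 in technical replicate 1 alone. The difference between the upstream gap and the Myb span turned to 14.4 in technical replicate 1 and was -17.8 to 2.99 with a library left out; the cause was not tested. The highest region kept its place in 2 of 6 stretches in technical replicate 1. Enhancer points with a region numbered 1 of 4 within 1 kb and 4 of 4 within 5 kb, since the window is wider. The share for other points of the locus was not counted. List genes in the top 10% numbered 3 in technical replicate 1 and 0 to 1 with a library left out. The fit with no replicate block, run between technical replicates, called 0 regions of the locus. In both comparisons the main fit, total-read scaling, DESeq2, the fit without a filter and each fit without a library called 0 as well. Between technical replicates DESeq2 gave no adjusted p for the locus regions, so it could make no call there. Valuing genes from their starts, and placing the Hbs1l start region in the upstream gap, were chosen after seeing the data. Depth was low: the 29 regions held 1007 reads, and no region held 10 or more reads in any sample of technical replicate 1.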
